A study of Mus musculus with 15 samples.

Results

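The expression of 5 ligand and 4 receptor genes of the fibroblast growth factor (FGF) family was followed through sorted cells from differentiating mouse embryonic stem cells. The 9 members were the lines of the count table with the symbols Fgf3, Fgf4, Fgf5, Fgf8, Fgf15, Fgfr1, Fgfr2, Fgfr3 and Fgfr4, out of 24034 lines that carry a gene symbol. The cells carried a reporter, LacZ, whose product beta-galactosidase marks cells in which regulatory elements of Endoglin (Eng) are active. Endoglin is an accessory receptor for TGF-beta ligands on endothelium and its precursors. From the line with the Eng promoter and the −8 kb enhancer, 3 fractions named HEI in the labels were sorted by Endoglin protein (ENG) and by FDG, a substrate that fluoresces once beta-galactosidase splits it. These were the ENG+/FDG+, the ENG−/FDG+ and the ENG+/FDG− fraction. From the line with the promoter and the −8, +7 and +9 kb enhancers, a LacZ+ and a LacZ− fraction of FLK1+ cells were sorted, FLK1 being a VEGF receptor on mesoderm and endothelium. There were 3 replicate libraries in each of the 5 groups, and values below are listed in the order of replicates 1, 2 and 3. Every HEI group thus differs from every FLK1+ group in stage, reporter line and gate, which cannot be told apart. The sources used here do not give culture days, the number of clones per line or whether replicates were separate cultures, so the p-values rest on a spread that may be only technical.

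FGFs are secreted signals that bind receptor tyrosine kinases together with heparan sulfate. The activated receptors signal through the RAS and ERK cascade, which turns on ETS factors such as Etv4 and Etv5, and also Sprouty and related proteins that dampen the signal. In the early mouse embryo Fgf4 acts in the inner cell mass and epiblast, Fgf5 is a classic marker of the epiblast that is leaving naive pluripotency, and Fgf8 and Fgf3 are made in the primitive streak, where gastrulating cells depend on Fgf8 to move away. Fgf15 is the mouse counterpart of human FGF19, and Fgfr1 is the receptor needed for mesoderm to form properly at gastrulation.

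The libraries held between 9673396 and 16337785 counts, and those of replicate 1, 5 in all, were unlike the other 10. Within a group, log2 CPM (counts scaled to a common library size with TMM factors) correlated at 0.987 to 0.990 between replicates 2 and 3, and at 0.864 to 0.933 between replicate 1 and either of them. Values of replicates 2 and 3 alone are therefore given beside the results that replicate 1 moved most. Kdr, which encodes the protein of the FLK1 gate, stood at 404 to 1036 CPM in HEI libraries and at 319 to 715 CPM in FLK1+ libraries. The 14 primitive streak markers summed to 7.53 to 18.1 CPM in HEI libraries and to 580 to 2266 CPM in FLK1+ libraries, and Mesp1 was at 0 in each of the 9 HEI libraries. The 12 endothelial markers summed to 2375 to 6444 CPM in HEI libraries and to 405 to 843 CPM in FLK1+ libraries.

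Fgf3, Fgf4, Fgf5, Fgf8, Fgf15 and Fgfr2 were all lower in HEI than in FLK1+ cells, while Fgfr1 was high in every library. Of the 9 members, 8 passed the filter on low counts and 6 of these passed the edgeR test at an adjusted p under 0.05, all of them lower in HEI. The background is wide, since 37.3% of the 13662 genes tested passed in either direction, 20.3% lower and 17% higher in HEI. All 5 ligands passed the filter only through FLK1+ libraries, which favours genes lower in HEI. Neither their number nor their shared direction is therefore evidence in itself. All fold changes of this comparison are HEI over FLK1+, with the standard error (SE) of the edgeR fit. The fit averages log2 group means, so an HEI group near 0 counts makes the fold larger than a ratio of mean CPM. In these sorted bulk samples, fewer cells that make a transcript and less transcript per cell cannot be told apart.

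Fgf15 was read in every FLK1+ library and was near 0 in HEI. It had 1, 1 and 0 counts in ENG+/FDG+, 15, 13 and 5 in ENG−/FDG+ and 2, 3 and 0 in ENG+/FDG− HEI libraries, against 513, 535 and 722 in FLK1+ LacZ+ and 205, 475 and 640 in FLK1+ LacZ− libraries. The 2 stages did not overlap, and the lowest FLK1+ library (14.4 CPM) lay far above the highest HEI library (1.27 CPM). The log2 fold change was −7.78 ± 0.50 (edgeR adjusted p = 2.32e-07). Fgf15 averaged 0.388 ± 0.513 CPM in HEI (SD, n = 9) and 46.3 ± 20.99 CPM in FLK1+ libraries (SD, n = 6). The annotated antisense genes Gm26793 and Gm39119 overlap Fgf15 on the other strand, and since the strand setting of the counting is not given, its reads cannot be separated from theirs. The same holds for Fgfr1, overlapped by the antisense gene Gm16159, and for Fgfr3, overlapped by G630022F23Rik on the other strand. The span that GENCODE gives Fgfr2 reaches 133123350 and holds other genes on both strands, the first starting at 130352038. The span that RefSeq gives Fgfr2 ends before them, at 130266808. Which annotation was used for the counting is not given.

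Fgf3 showed the same order of stages with a wider spread inside HEI. It had 2, 3 and 1 counts in ENG+/FDG+, 2, 43 and 37 in ENG−/FDG+ and 0, 0 and 1 in ENG+/FDG− HEI libraries, against 407, 189 and 185 in FLK1+ LacZ+ and 476, 175 and 213 in FLK1+ LacZ− libraries. Only ENG−/FDG+ replicates 2 and 3 rose above 3 counts among the HEI libraries, at 4.14 and 3.15 CPM, and they still lay below the lowest FLK1+ library at 16.2 CPM. The log2 fold change was −6.46 ± 0.58 (edgeR adjusted p = 3.11e-06). By the ratio of mean CPM over libraries, Fgf3 was 24.8-fold lower in HEI, a smaller fold.

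Fgf4 was a low transcript even where it was highest. It had 0 counts in all 3 ENG+/FDG+ and all 3 ENG+/FDG− HEI libraries and 0, 2 and 2 in ENG−/FDG+, against 132, 30 and 24 in FLK1+ LacZ+ and 20, 18 and 36 in FLK1+ LacZ− libraries. The stages did not overlap, and the log2 fold change was −7.04 ± 0.71 (edgeR adjusted p = 6.72e-05), a fitted value that leans on libraries with 0 to 2 counts. A count of 0 in an HEI library allows up to 3 counts, or 0.182 to 0.298 CPM, which covers counting error only.

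Fgf5 and Fgf8 were carried mainly by the replicate 1 libraries of the FLK1+ groups. Fgf5 had 2, 1 and 0 counts in ENG+/FDG+, 0, 3 and 0 in ENG−/FDG+ and 1, 0 and 2 in ENG+/FDG− HEI libraries, against 344, 8 and 6 in FLK1+ LacZ+ and 242, 27 and 19 in FLK1+ LacZ− libraries. The log2 fold change was −6.33 ± 1.04 (edgeR adjusted p = 0.000371), and −3.60 ± 0.65 in replicates 2 and 3 alone (adjusted p = 4.81e-05, where 73.7% of genes passed). Fgf5 therefore stayed lower in HEI without replicate 1, by a smaller fold.

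Fgf8 had no count in any of the 9 HEI libraries. The FLK1+ LacZ+ libraries had 573, 8 and 8 counts and the FLK1+ LacZ− libraries 525, 13 and 29, which is 36.6, 0.80 and 0.821 CPM and 36.8, 1.20 and 2.69 CPM. With 3 counts allowed in each HEI library, Fgf8 was at least 51.8-fold lower in HEI (edgeR adjusted p = 0.00537). It was at least 5.0-fold lower when only replicates 2 and 3 were used (adjusted p = 3.86e-06, where 73.7% of genes passed). The 14 primitive streak markers summed to 1419, 823 and 580 CPM in FLK1+ LacZ+ and 2266, 1139 and 894 CPM in FLK1+ LacZ− libraries, and the 11 pluripotency and epiblast markers to 1084, 569 and 399 CPM and to 913, 791 and 581 CPM. Both sums were thus highest in replicate 1 of each group, by smaller ratios than Fgf5 and Fgf8. Of single genes in these lists, Utf1, an epiblast chromatin factor, stood at 153, 0.50 and 0.821 CPM in FLK1+ LacZ+ and 6.17, 0.185 and 0.741 CPM in FLK1+ LacZ− libraries, and Mesp1, a factor of nascent mesoderm, at 45.0, 6.90 and 2.77 CPM and at 102, 10.2 and 7.51 CPM. In HEI the epiblast list summed to 110 to 299 CPM. Of its 10 tested genes, 9 were nevertheless lower in HEI than in FLK1+ cells and 1 was higher, where 20.3% of all genes were lower and 17% higher. Their median log2 fold change was −6.18, and that of all genes −0.11. Genes of the list near 0 counts in HEI pass the filter only through FLK1+ libraries, which favours this direction, so the count is not evidence in itself. The part of epiblast and streak cells in the Fgf5 and Fgf8 values was not tested.

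Of the 6 members with an entry in the RefSeq promoter table (GRCm38.p6, the same assembly as mm10), the stretch upstream of the start is shown for Fgf4 and Fgf5, 2 ligands that were low in HEI. The windows are the 250 bases before the annotated start on the plus strand, at chr7:144861136-144861385 for Fgf4 and chr5:98253934-98254183 for Fgf5, and contain no base of an annotated exon. The Fgf4 window lies within the longer span that GENCODE gives Fgf4, so it may not be upstream of every Fgf4 transcript. Capitals mark matches, on either strand, to 3 letter patterns chosen with the sequences in view, which were a TATA box (TATATA), a T-box element (GGTGTGA) and a TCF/LEF core (CTTTGA).
Fgf4: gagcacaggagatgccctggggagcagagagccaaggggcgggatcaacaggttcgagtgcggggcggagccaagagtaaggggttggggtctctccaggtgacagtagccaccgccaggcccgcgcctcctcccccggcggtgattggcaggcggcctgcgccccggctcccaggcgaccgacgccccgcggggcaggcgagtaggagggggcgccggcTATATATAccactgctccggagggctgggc
Fgf5: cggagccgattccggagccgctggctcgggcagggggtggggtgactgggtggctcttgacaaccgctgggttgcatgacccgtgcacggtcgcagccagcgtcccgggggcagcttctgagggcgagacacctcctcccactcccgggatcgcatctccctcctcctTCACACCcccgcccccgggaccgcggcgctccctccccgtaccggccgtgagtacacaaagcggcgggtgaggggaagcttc
The capitals in Fgf4 are 2 overlapping matches to the TATA pattern, which 5.25% of all 32851 promoter windows hold. Those in Fgf5 are the T-box element read on the other strand, held by 3.33%. The TCF/LEF core, held by 13.8%, had no match in these windows. Both windows were rich in G and C, at 71.2% in Fgf4 and 70.8% in Fgf5, with a median of 52.4% over all promoters. A match describes letters only, not a bound site.

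**Figure D1:**
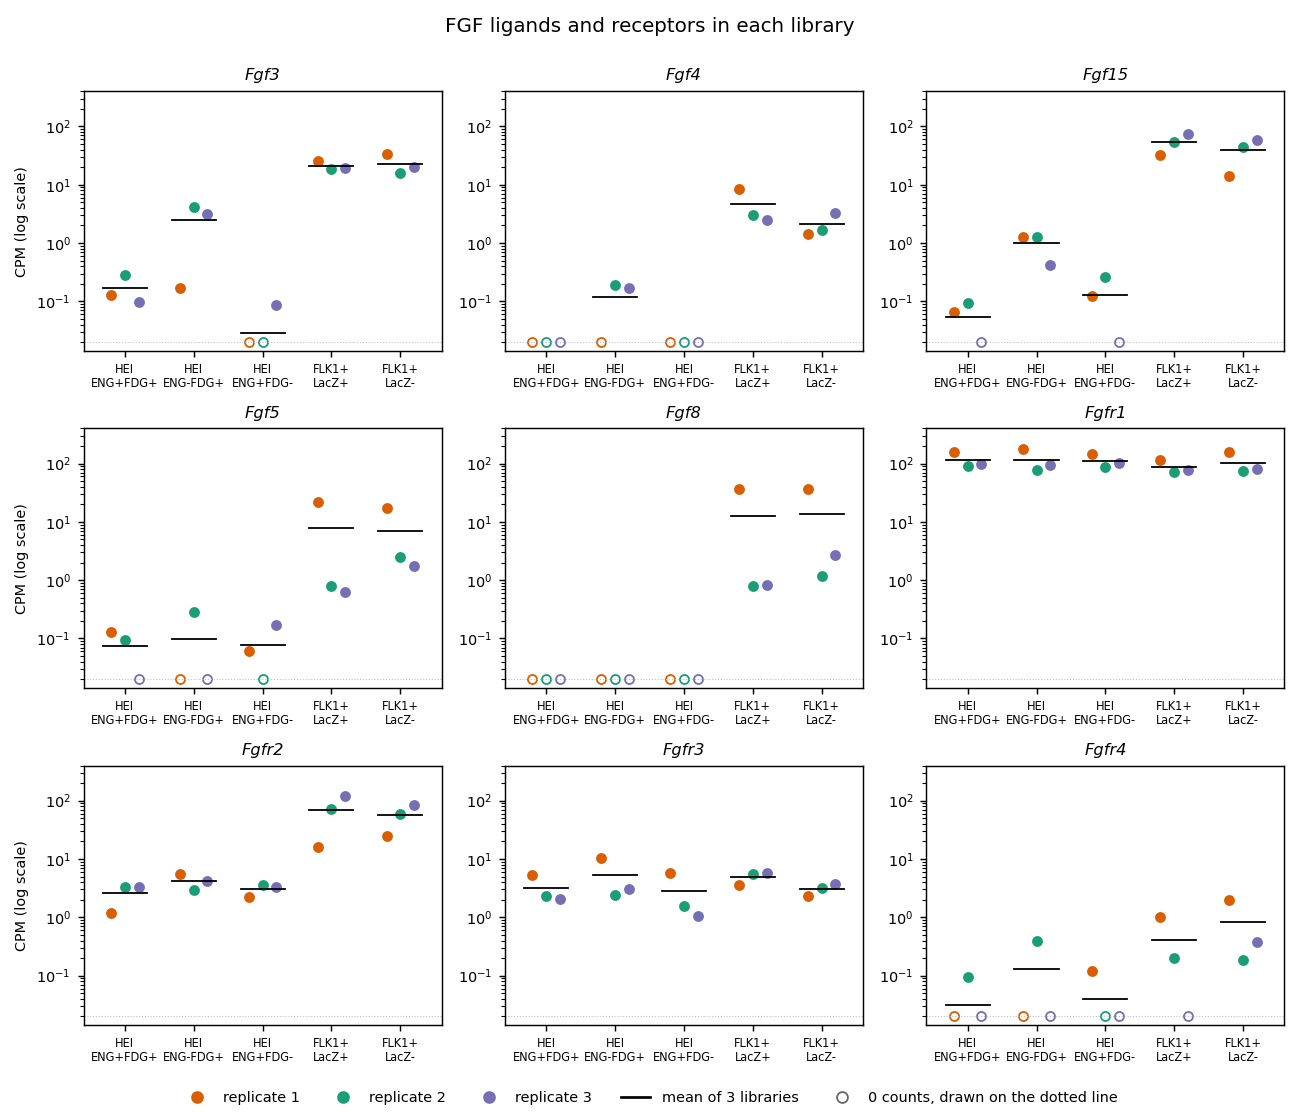
CPM of each of the 9 members in every library (log axis), with the 5 groups from left to right, 1 point per library coloured by replicate number, and a bar at the mean of 3 libraries (not drawn where it is 0). Libraries with 0 counts are open circles on the dotted line. The ligands and Fgfr2 drop in HEI, Fgf5 and Fgf8 are highest in FLK1+ replicate 1, and Fgfr1 stays between 72.3 and 177 CPM.

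The receptors did not move together. Fgfr1 stood at 155, 89.5 and 96.4 CPM in ENG+/FDG+, 177, 77.9 and 93.5 in ENG−/FDG+ and 145, 87.7 and 104 CPM in ENG+/FDG− HEI libraries, against 114, 72.3 and 77.3 CPM in FLK1+ LacZ+ and 155, 75.1 and 79.7 CPM in FLK1+ LacZ− libraries. The stages overlapped, replicate 1 was the highest library of every group, and the log2 fold change of 0.26 ± 0.25 did not pass (edgeR adjusted p = 0.457). With the replicate number as a block the same difference was 0.26 ± 0.08 and passed (adjusted p = 0.00851), as did 0.36 ± 0.07 in replicates 2 and 3 (adjusted p = 8.37e-05). Of all genes, 66.2% passed under the block and 73.7% in replicates 2 and 3, so a call of this size is common there.

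Fgfr2, the receptor gene whose epithelial splice form binds Fgf10 and Fgf7, fell in HEI cells. It stood at 1.17, 3.33 and 3.28 CPM in ENG+/FDG+, 5.60, 2.98 and 4.17 in ENG−/FDG+ and 2.24, 3.53 and 3.29 CPM in ENG+/FDG− HEI libraries, against 15.8, 73.0 and 119 CPM in FLK1+ LacZ+ and 24.6, 59.8 and 83.3 CPM in FLK1+ LacZ− libraries. Here replicate 1 was the lowest FLK1+ library of each group, opposite to Fgf5 and Fgf8, and still lay above all HEI libraries. The log2 fold change was −4.27 ± 0.43 (edgeR adjusted p = 7.52e-06). The counts are per gene, so the splice forms were not separated.

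Fgfr3 was low throughout, and its direction depended on replicate 1. It stood at 5.33, 2.29 and 2.09 CPM in ENG+/FDG+, 10.4, 2.4 and 3.07 in ENG−/FDG+ and 5.82, 1.59 and 1.04 CPM in ENG+/FDG− HEI libraries, against 3.64, 5.50 and 5.75 CPM in FLK1+ LacZ+ and 2.31, 3.14 and 3.71 CPM in FLK1+ LacZ− libraries. Replicate 1 was the highest HEI library and the lowest FLK1+ library of each group. The log2 fold change was −0.09 ± 0.44 over all libraries (edgeR adjusted p = 0.901) and −1.04 ± 0.21 in replicates 2 and 3 (adjusted p = 0.000151, where 73.7% of genes passed).

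Fgfr4 did not pass the filter. It had 0 to 4 counts in each HEI library and in FLK1+ replicates 2 and 3, and 16 and 28 counts in FLK1+ LacZ+ and LacZ− replicate 1. Tested without the filter, its log2 fold change was −3.12 ± 1.01 (edgeR adjusted p = 0.0321). In replicates 2 and 3 it averaged 0.0800 CPM in HEI and 0.189 CPM in FLK1+ libraries, 5 and 8 counts in all, and that difference was not tested.

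**Figure D2:**
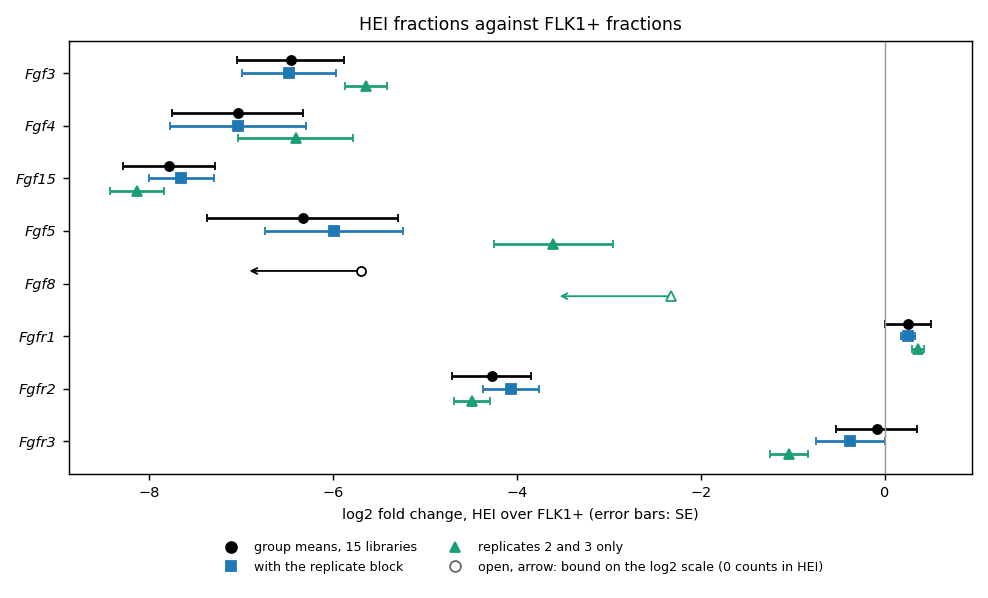
Log2 fold change of HEI over FLK1+ for the 8 members tested, with SE, from group means over 15 libraries, with the replicate block, and in replicates 2 and 3. Fgf8 is drawn as a bound with an arrow, since HEI libraries had 0 counts, and has no bound under the block. Fgf3, Fgf4, Fgf15, Fgf5 and Fgfr2 lie below −3 in each setting and Fgfr1 near 0.

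Compared per kb of annotated exons, the 2 stages had different leading members. In HEI, Fgfr1 led at 11.5 ± 3.59 CPM per kb (SD, n = 9), and the next members were Fgfr3 at 0.527 ± 0.412, Fgf3 at 0.385 ± 0.679 and Fgfr2 at 0.318 ± 0.118 CPM per kb. In FLK1+ libraries Fgf15 stood at 15.1 ± 6.86, Fgf8 at 9.74 ± 13.5, Fgfr1 at 9.68 ± 3.35, Fgf3 at 9.54 ± 2.74 and Fgfr2 at 6.06 ± 3.71 CPM per kb (SD, n = 6). The Fgf8 level rested on replicate 1, at 27.2 CPM per kb there. In replicates 2 and 3 of FLK1+ cells Fgf15 stood at 18.9 ± 4.14, Fgfr2 at 8.11 ± 2.45, Fgf3 at 7.93 ± 0.677, Fgfr1 at 7.71 ± 0.319 and Fgf8 at 1.02 ± 0.661 CPM per kb (SD, n = 4). There Fgf15 lay above and Fgf8 below the other 3, which were within their spread of each other. With the longest transcript as the length, Fgf15 still led in FLK1+ cells at 25.6 CPM per kb, with Fgfr1 at 19.0 and Fgfr2 at 14.1, and in HEI Fgfr2 (0.743) came before Fgf3 (0.390).

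Fgf3, Fgf4 and Fgf15 lie side by side on chromosome 7 within 62.3 kb (RefSeq, GRCm38.p6). Fgf3 spans 144838612 to 144843348, Fgf4 144861386 to 144865245 and Fgf15 144896532 to 144900953, all on the plus strand, with Ano1 86.6 kb before Fgf3 and Ccnd1 29.0 kb after Fgf15. Of the neighbours, Ano1, a chloride channel, averaged 1.10 ± 0.573 CPM in HEI (SD, n = 9) and 6.92 ± 3.38 CPM in FLK1+ libraries (SD, n = 6), a log2 fold change of −2.69 ± 0.42 (edgeR adjusted p = 0.000244). Ccnd1, which encodes cyclin D1 and is itself an ERK target, averaged 154 ± 69.6 CPM in HEI and 430 ± 63.7 CPM in FLK1+ libraries (−1.48 ± 0.27, adjusted p = 0.00086). Oraov1, between Fgf15 and Ccnd1, was at 9.54 ± 3.58 CPM in HEI and 9.62 ± 1.76 CPM in FLK1+ libraries, and its log2 fold change of −0.02 ± 0.22 did not pass (adjusted p = 0.944). Nor did Fadd (0.31 ± 0.17, adjusted p = 0.196) and Tpcn2 (−0.48 ± 0.28, adjusted p = 0.213), though both did with the block (0.0171 and 0.0372). The other members lie elsewhere, Fgfr2 also on chromosome 7 but at 130162451 to 130266808.

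No member passed the test between LacZ+ and LacZ− cells of FLK1+ mesoderm, a comparison that asks which transcripts accompany activity of the reporter with 3 enhancers. With SEs of up to 1.74 log2, this does not show that levels were equal. Of the 8 members tested, 0 passed, where 0% of all genes passed edgeR. At an unadjusted p under 0.05 there were 170 genes, and DESeq2 and edgeR in replicates 2 and 3 called 8 genes each, no member among them. Fgf15 was higher in LacZ+ in 3 of 3 same-numbered pairs, by 0.45 ± 0.58 log2, with 32.8, 53.5 and 74.1 CPM in the LacZ+ libraries against 14.4, 43.8 and 59.3 CPM in the LacZ− libraries. Fgfr3 was also higher in 3 of 3 pairs, by 0.70 ± 0.69 log2. Fgf8 and Fgfr1 were lower in LacZ+ in 3 of 3 pairs, by fitted differences of −0.09 ± 1.74 and −0.24 ± 0.38 log2. For all 4, the edgeR adjusted p was 1, and the group ranges overlapped. Fgf3 was within its spread, with 21.3 ± 4.07 CPM in the LacZ+ and 23.1 ± 9.09 CPM in the LacZ− libraries (SD, n = 3 each).

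Between ENG+/FDG+ and ENG+/FDG− HEI cells, which differ in activity of the reporter with the −8 kb enhancer, no member passed either. Again 0% of all genes passed edgeR, with 39 genes at an unadjusted p under 0.05, 0 by DESeq2 and 75 by edgeR in replicates 2 and 3. Fgfr1 averaged 114 ± 36.3 CPM in the ENG+/FDG+ fraction, against 112 ± 29.3 CPM in the ENG+/FDG− fraction, Fgfr2 2.59 ± 1.23 and 3.02 ± 0.682 CPM, and Fgfr3 3.24 ± 1.82 and 2.82 ± 2.62 CPM (SD, n = 3 each). Fgf3, Fgf5 and Fgf15 had at most 3 counts in each of these 6 libraries, and Fgf4 and Fgf8 had 0. The difference between the 2 reporter effects, HEI minus FLK1+, passed for 0 members and for 0% of genes by edgeR, with 97 genes at an unadjusted p under 0.05 and 0 by DESeq2. For the ligands, with at most 3 counts in each of the 6 ENG+ libraries, this test can say little. Its SEs were 0.54, 0.91 and 0.97 log2 for Fgfr1, Fgfr2 and Fgfr3, so equal effects were not shown.

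Within HEI, Fgf3 and Fgf15 had most of their counts in the ENG−/FDG+ fraction, 82 of 89 and 33 of 40. Against ENG+/FDG− cells, Fgf3 was the only one of 8 members to pass, where 0.351% of genes passed and 0.154% were higher in ENG−/FDG+. It had 2, 43 and 37 counts in ENG−/FDG+ and 0, 0 and 1 in ENG+/FDG− libraries, that is 82 counts against 1, a ratio of 95.2 after scaling (95% counting interval 16.6 to 3805). Its edgeR adjusted p was 0.0453. It was higher in 3 of 3 same-numbered pairs, but the replicate 1 pair held only 2 and 0 counts, too few to show a difference. The call was lost in 5 of 6 fits that left out 1 library of these groups (adjusted p 0.122 to 0.238) and without the filter (0.0549). Leaving out ENG−/FDG+ replicate 1 lowered the adjusted p to 0.0095. It passed with the replicate block (adjusted p = 0.00834), in replicates 2 and 3 alone (7.74e-07, where 27.1% of genes passed) and with DESeq2 (0.000449, where 3.33% did).

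Fgf15 had 15, 13 and 5 counts in ENG−/FDG+ and 2, 3 and 0 in ENG+/FDG− libraries. The groups did not overlap, and the difference of 2.85 ± 0.84 log2 missed the threshold (edgeR adjusted p = 0.219) but passed with the block (2.85 ± 0.85, adjusted p = 0.0476). With the block 11.1% of all genes passed this comparison. It also passed with DESeq2 (adjusted p = 0.0438) but not in replicates 2 and 3 (0.149), where Fgfr3 was the second member to pass, by 1.03 log2 (adjusted p = 0.0406).

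Set against ENG−/FDG+ cells, ENG+/FDG+ cells showed the mirror of this. No member passed, where 0.278% of genes did. Fgf3 had 2, 3 and 1 counts in ENG+/FDG+ and 2, 43 and 37 in ENG−/FDG+ libraries, a log2 difference of −3.79 ± 0.92 (edgeR adjusted p = 0.115). With the block it was −3.79 ± 0.95 and passed (adjusted p = 0.0229), and it also passed in replicates 2 and 3 (4.23e-06, where 29.3% of genes did) and without ENG−/FDG+ replicate 1 (0.014). Fgf15 had 1, 1 and 0 counts in ENG+/FDG+ and 15, 13 and 5 in ENG−/FDG+ libraries, 2 against 33 in all, 17.5-fold lower after scaling (95% counting interval 4.47 to 150). It missed the threshold (adjusted p = 0.122) and passed with the block (0.028), where 10.8% of genes passed. These 2 comparisons share the ENG−/FDG+ libraries, so they are not independent of each other.

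Marker lists of other cells differed in the same fraction, some upward and some downward. The 12 haematopoietic markers summed to 406 to 443 CPM in the ENG+/FDG+, 902 to 1058 CPM in the ENG−/FDG+ and 380 to 486 CPM in the ENG+/FDG− fraction. Of 11 tested, 2 were higher in ENG−/FDG+ than in ENG+/FDG−, where 0.154% of all genes were. The 12 endothelial markers summed to 4532 to 5539, 2375 to 2801 and 4372 to 6444 CPM in the same order of groups, and the 13 endoderm markers to 201 to 355, 88.9 to 145 and 207 to 376 CPM, so that both sums were lowest in ENG−/FDG+ without overlap. Against ENG+/FDG−, 0 of 12 endothelial and 0 of 7 endoderm markers tested passed. With the block, where 11.1% of all genes passed, 4 endothelial markers were lower in ENG−/FDG+, and of the endoderm markers 1 was higher and 2 were lower. The 11 mesenchyme and smooth muscle markers summed to 128 to 577 CPM, 356 to 5105 CPM and 270 to 475 CPM, the highest being ENG−/FDG+ replicate 1, the library of that fraction with 2 counts of Fgf3. The 14 primitive streak markers stayed low, at 10.3 to 11.2, 11.3 to 18.1 and 7.53 to 15.6 CPM. Within that list T, the streak gene Brachyury, was at 0, 1.92 and 0 CPM in ENG−/FDG+ libraries. The part of these cells in the Fgf3 and Fgf15 values was not tested.

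**Figure D3:**
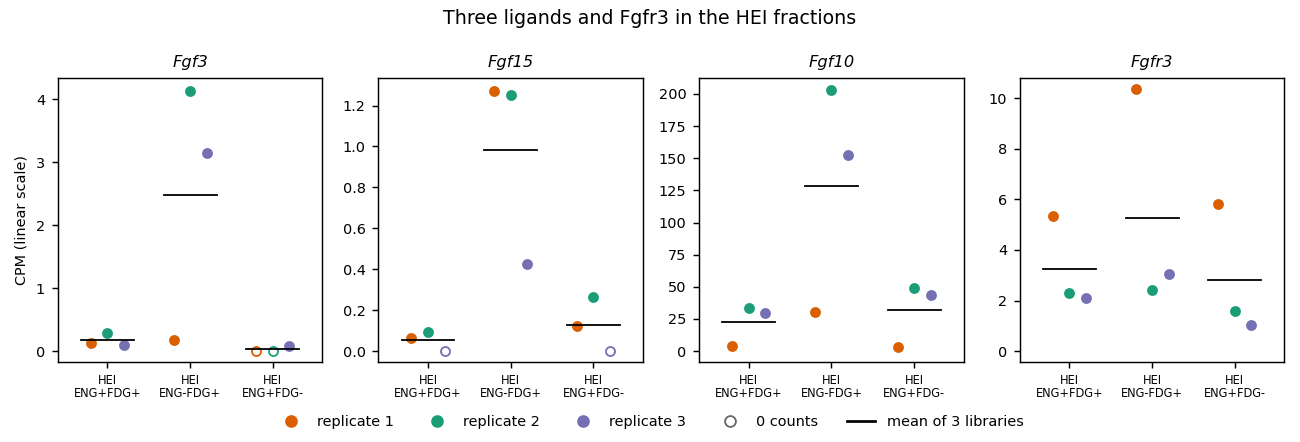
CPM of Fgf3, Fgf15, Fgf10 and Fgfr3 in the 3 HEI fractions (linear axes starting at 0, with a different range for each gene), 1 point per library coloured by replicate number, open where the library had 0 counts, with a bar at the mean. Fgf3 and Fgf10 are highest in ENG−/FDG+ replicates 2 and 3, and Fgf15 in all 3 ENG−/FDG+ libraries.

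Fgf10, a ligand of mesenchyme and the second heart field, is an FGF gene outside the 9 members. It stood at 4.23, 33.9 and 29.4 CPM in ENG+/FDG+, 30.5, 203 and 152 in ENG−/FDG+ and 3.46, 49.1 and 43.6 CPM in ENG+/FDG− HEI libraries, against 93.6, 255 and 282 CPM in FLK1+ LacZ+ and 174, 287 and 253 CPM in FLK1+ LacZ− libraries. Within each replicate number ENG−/FDG+ was thus the highest HEI fraction. Fgf10 fell in HEI against FLK1+ cells (−2.31 ± 0.58 log2, edgeR adjusted p = 0.00676). Between ENG−/FDG+ and ENG+/FDG− cells its difference of 2.01 ± 0.93 did not pass (adjusted p = 0.525), and with the block it was 2.12 ± 0.46 and did (0.0121).

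Of 17 other genes of the FGF family, which include intracellular homologues such as Fgf11 that are not secreted ligands, 6 passed the filter. In HEI against FLK1+ cells 0 of them rose and 3 fell, where 17% of all genes rose and 20.3% fell. Their median log2 fold change was −1.03, and the median of all genes was −0.11. With the block, where 66.2% of all genes passed, 1 rose and 4 fell. The ligand that rose was Fgf7, which acts on epithelia, at 0.900 ± 0.669 CPM in HEI and 0.357 ± 0.253 CPM in FLK1+ libraries (1.35 ± 0.57, adjusted p = 0.0483). The 3 that fell without the block were Fgf18, a ligand of bone and lung mesenchyme (−2.57 ± 0.53, edgeR adjusted p = 0.00194), Fgf10 and Fgf11, an intracellular homologue (−1.16 ± 0.32, adjusted p = 0.0127). Of the 14 co-receptors and binding proteins, 10 were tested, 4 rose and 3 fell, where 17% of all genes rose and 20.3% fell. Their median was 0.44. Flrt2, a membrane protein with leucine-rich repeats that acts in adhesion and guidance, rose most, at 237 ± 82.2 CPM in HEI (SD, n = 9) and 9.79 ± 2.85 CPM in FLK1+ libraries (SD, n = 6), by 4.57 ± 0.19 log2 (adjusted p = 9.46e-09). Its relative Flrt3, known to promote FGF signalling in Xenopus, fell by 1.29 log2 (adjusted p = 0.00067). Fgfrl1, a receptor-like protein without a kinase domain, fell by 1.5 log2 (adjusted p = 0.00124), and Hs6st2, which adds sulfate to heparan sulfate, rose by 1.32 ± 0.34 log2 (adjusted p = 0.00799).

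Most of the listed signalling genes inside the cell did not pass, and neither did most genes of the whole table. Of 18 genes of FGF signal transduction, all tested, 2 rose, 3 fell and 13 did not pass, where 37.3% of all genes passed. Their median of −0.11 equalled that of all genes. Gab1, a docking protein, averaged 233 ± 28.4 CPM in HEI and 84.0 ± 29.6 CPM in FLK1+ libraries (1.48 ± 0.18, edgeR adjusted p = 3.18e-05), and Plcg1, phospholipase C gamma, rose by 0.58 ± 0.15 log2 (adjusted p = 0.00784). The kinases Braf and Map2k1 fell by 1.3 and 0.97 log2 (adjusted p = 0.00651 and 0.0058). With the replicate block, where 66.2% of all genes passed, 4 of the 18 rose and 6 fell, among them Frs2, the adaptor that couples FGF receptors to RAS (−0.71 ± 0.07, adjusted p = 9.86e-07).

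Of 10 genes known as targets of FGF and ERK signalling, 0 rose and 5 fell, with a median of −0.67, where 37.3% of all genes passed and 20.3% were lower. The ETS factors Etv4 and Etv5 fell furthest. Etv5 averaged 5.90 ± 6.31 CPM in HEI (SD, n = 9) and 105 ± 68.1 CPM in FLK1+ libraries (SD, n = 6), a log2 fold change of −4.17 ± 0.67 (edgeR adjusted p = 0.000311), and Etv4 0.714 ± 0.782 and 14.1 ± 6.63 CPM (−4.32 ± 0.58, adjusted p = 7.27e-05). Their relative Etv1 fell by 2.49 log2 (adjusted p = 1.42e-05) and Myc by 1.61 log2 (adjusted p = 0.000384). The list was not uniform, since with the block 4 of its genes rose beside the 5 that fell, where 66.2% of all genes passed, among them the immediate early gene Fos, at 122 ± 50.1 CPM in HEI and 35.6 ± 44.8 CPM in FLK1+ libraries (2.47 ± 0.37, adjusted p = 6.98e-05, and 1.80 ± 0.69, adjusted p = 0.0564, without the block).

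Of 11 feedback inhibitors, 10 were tested, 0 rose and 6 fell, with a median of −0.95, again beside 20.3% of all genes. Il17rd, a membrane protein also called Sef that restrains FGF signalling, averaged 15.7 ± 3.81 CPM in HEI and 163 ± 20.4 CPM in FLK1+ libraries (−3.39 ± 0.17, edgeR adjusted p = 3.37e-08). Spry4, a Sprouty protein, had 21.3, 2.0 and 2.09 CPM in ENG+/FDG+, 13.5, 0.962 and 0.852 in ENG−/FDG+ and 28.3, 2.03 and 1.56 CPM in ENG+/FDG− HEI libraries, against 75.6, 34.3 and 34.7 CPM in FLK1+ LacZ+ and 62.1, 42.2 and 34.6 CPM in FLK1+ LacZ− libraries. Every HEI replicate 1 library was thus above the other 2 of its group. The fold change was −2.60 ± 0.80 (adjusted p = 0.0206) and −4.50 ± 0.13 in replicates 2 and 3 (adjusted p = 5.64e-17, where 73.7% of genes passed). Spry1 and Spred1 fell by 1.32 and 1.3 log2 (adjusted p = 0.0106 and 0.00751).

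Within HEI none of the genes of these 5 pathway lists passed in the 3 comparisons without the block. With it, 11.1% of all genes passed between ENG−/FDG+ and ENG+/FDG− cells. ENG−/FDG+ cells then had less Flrt2 (144 ± 3.18 CPM and 301 ± 63.2 CPM, −1.04 ± 0.13 log2, adjusted p = 0.000443), less of Dusp6, an ERK phosphatase that dampens the signal (22.5 ± 9.24 and 39.7 ± 14.4 CPM, −0.83 ± 0.14, adjusted p = 0.00275), less Spred3, a relative of Spred1 (−1.34 ± 0.35, 0.024), and less Mapk3, the kinase ERK1 (−0.52 ± 0.14, 0.0318). They had more Frs2 (0.51 ± 0.11, adjusted p = 0.0132) and more Phlda1, an ERK target (0.54 ± 0.13, 0.0199). In ENG+/FDG+ against ENG−/FDG+ cells, which share the ENG−/FDG+ libraries and where 10.8% of all genes passed, Flrt2, Spred3 and Dusp6 were higher with the block by 0.87, 1.30 and 0.67 log2, and Fgf10, Phlda1 and Frs2 lower at −2.54, −0.59 and −0.43 log2 (adjusted p 0.00127 to 0.0301). In the reporter comparisons 0 genes of these lists passed, with or without the block. Of their genes with the highest mean CPM, Fgf10, Flrt2, Nras, Ccnd1 and Spred1 differed between LacZ+ and LacZ− cells by −0.18, 0.66, −0.0033, 0.27 and 0.07 log2, and between ENG+/FDG+ and ENG+/FDG− cells by −0.51, −0.17, 0.07, −0.23 and −0.07 log2.

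**Figure D4:**
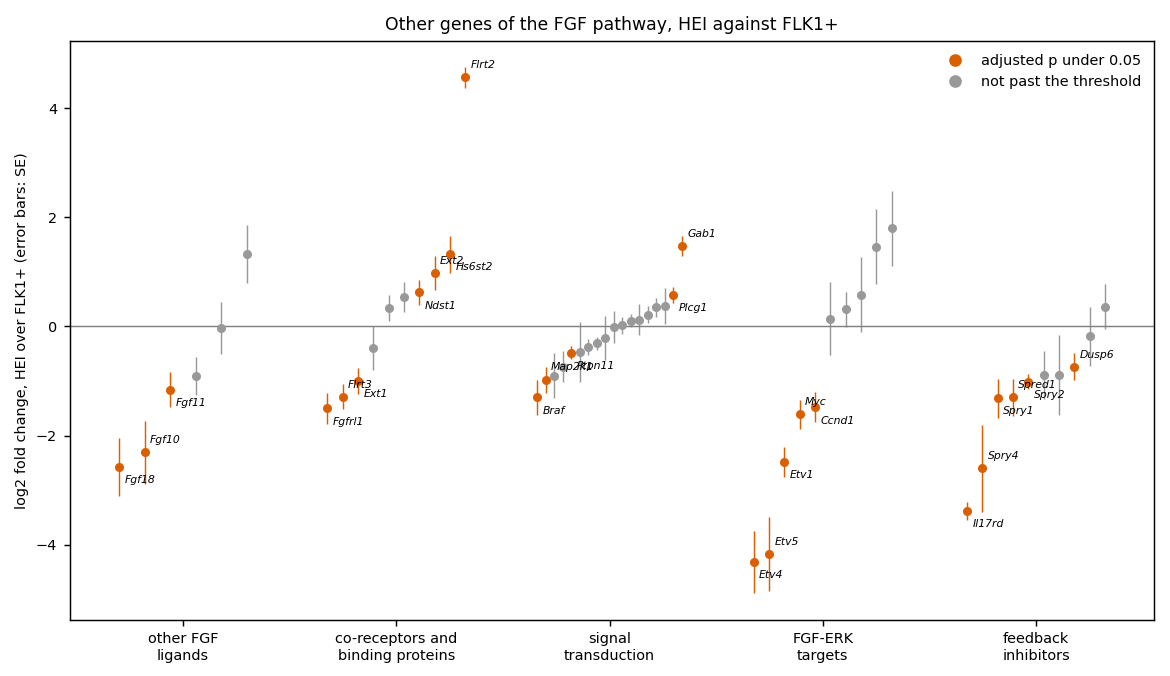
Log2 fold change of HEI over FLK1+ with SE for the genes of 5 FGF pathway lists that passed the filter, from group means over 15 libraries. Genes past an adjusted p of 0.05 are orange and named. Etv4, Etv5 and Il17rd lie lowest and Flrt2 highest. Of 18 signal transduction genes 13 did not pass, where 37.3% of all genes passed.

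The genes whose log2 CPM followed each member most closely over the 15 libraries, after the mean of each replicate number was subtracted, were taken as a description, since all libraries share the difference between stages. Fgf5 was followed by Fgf8 (Pearson r = 0.979), Ap1m2 (0.973) and Btla (0.971). Fgf8 was followed by Ap1m2 (0.993), Lmo1 (0.982) and Pacsin1 (0.980). For Fgf3 they were Hat1, Suv39h2 and Nat10 (0.988 to 0.989), for Fgf4 Uspl1, Usp54 and Nol9 (0.981 to 0.985), and for Fgf15 Gja1, Rps6ka6 and Drosha (0.988 to 0.991). For Fgfr2 they were B4galt6, Dsg2 and Msx2 (0.987 to 0.990), for Fgfr1 Ilvbl, Zfp651 and Zfp68 (0.924 to 0.941), and for Fgfr3 Fignl1, Ap4e1 and Brip1 (0.904 to 0.915). Without the subtraction Fgf8 kept Ap1m2 as its closest gene and Fgf5 kept Fgf8, while for Fgf3, Fgf4, Fgfr1, Fgfr2 and Fgfr3 none of the 3 genes was the same. Fignl1, Ap4e1 and Brip1 then correlated with Fgfr3 at −0.23, −0.15 and −0.099. With Fgfr1, Zfp68 turned to −0.50, while Ilvbl and Zfp651 stayed at 0.751 and 0.971.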

How the data were processed

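The authors deposited raw counts, given as whole numbers in 1 table of gene symbols by libraries. Per the labels' protocols, total RNA was amplified (Nugen kit) before Illumina library construction. The submitters' processing notes name STAR 2.4.0, HTSeq 0.6.1 and mm10. The sources used here do not give the gene annotation, strand setting or filters.

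Of 24061 lines, 27 carried a date in place of a symbol and were left out (0.153% to 0.349% of counts). Samples were grouped by their labels. The members and gene lists were chosen with earlier results of these data known. edgeR 4.0.16 (R 4.3.3) with filterByExpr and TMM left 13662 genes, and group means over all 15 libraries were estimated together with robust quasi-likelihood dispersions. Adjusted p values are Benjamini-Hochberg values over these genes, with a threshold of 0.05. Each SE was set so that the squared ratio of fold change to SE is the test's F value. Where a comparison side held under 4 pooled counts, folds of members or pathway genes are given as counts, bounds or ratios with counting intervals. Where both sides held more, fitted folds are given, even if a group within a side held fewer. The fit was also run on simulated data in which only genes with ample counts were changed, which does not cover members near 0 counts in HEI.

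Same-numbered libraries of different groups deviated together from their group means (r 0.432 to 0.867 over genes in 30 pairs). Replicate 1 stood apart in every group, and this alone can make such deviations correlate. A pairing of replicates 2 and 3 across groups was therefore not shown, and the labels give none. The block treats the numbers as pairs all the same, and its fit is given where it changes a call. The biological coefficient of variation was 0.477 without the block, 0.199 with it and 0.0761 in replicates 2 and 3. The other alternatives were RLE size factors, no filter, at least 5 CPM in 3 libraries, only the groups compared, DESeq2 1.42.0, replicates 2 and 3 only, each library left out, likeness without centring, and the longest transcript as length. Named were all members, the 3 genes most like each, and from each pathway list up to 4 genes past the threshold with the largest fold change, without and with the block, or genes of the highest mean CPM where none passed. Ano1, Oraov1, Fadd, Tpcn2, Ccnd1, Utf1 and T were named after their values were seen. CPM intervals and floors cover counting error only.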

Additional observations from a re-analysis of the deposited data

How the results depend on the processing

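Of the members called in HEI against FLK1+ cells, 6 in the main analysis, RLE factors and DESeq2 also called 6, the replicate block and no filter 7, replicates 2 and 3 alone 8, and leave-one-out fits 6 to 7. The stricter filter (5 CPM or more in 3 libraries) called 3. Fgf4, Fgf5, Fgf8 and Fgfr4 reached 5 CPM in fewer than 3 libraries, so they were not tested there and their calls were not lost by a test. For RLE factors, no filter, the stricter filter and the leave-one-out fits, no share over all genes is given here. In ENG+/FDG+ against ENG−/FDG+ cells the count was 0, but 2 with the block, 2 with DESeq2, 1 in replicates 2 and 3, and 0 to 1 with a library left out. In ENG−/FDG+ against ENG+/FDG− cells the count of 1 became 2 with the block, with DESeq2 and in replicates 2 and 3, 0 without the filter and 0 when only the groups compared were fitted (Fgf3 then missed the filter), and 0 to 1 with a library left out. In the other 3 comparisons it was 0 in every setting run, the block included. The number of genes called in HEI against FLK1+ cells was 5096 of 13662, 9039 with the block, 9815 of 13321 in replicates 2 and 3 and 5678 of 13355 with DESeq2. It was 38 and 1482 with the block for ENG+/FDG+ against ENG−/FDG+, and 48 and 1515 with the block for ENG−/FDG+ against ENG+/FDG−. DESeq2 called 441 and 445 in these. The block changed no other call of a member than those given.

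Some differences within the error changed sign, and the cause was not tested. With the block Fgf5 in FLK1+ LacZ+ against LacZ− cells was −0.475, Fgfr1 in ENG+/FDG+ against ENG−/FDG+ was 0.012, and Fgfr1 in ENG−/FDG+ against ENG+/FDG− was −0.0061 log2. In replicates 2 and 3, Fgf3 and Fgf5 in LacZ+ against LacZ− cells were 0.067 and −1.58, Fgfr1 was −0.0183 in ENG+/FDG+ against ENG+/FDG−, 0.176 in ENG+/FDG+ against ENG−/FDG+ and −0.195 in ENG−/FDG+ against ENG+/FDG−, and the reporter effect on Fgfr3 was 0.056. Without the filter Fgfr3 in HEI against FLK1+ cells was 0.0041. With 1 library left out, the sign also turned for Fgf5 (−3.31 to 1.88), Fgf8 (−4.05 to 2.71), Fgf3 (−0.318 to 0.245), Fgfr1 (−0.469 to 0.18) and Fgfr2 (−0.336 to 0.776) in LacZ+ against LacZ− cells. It turned for Fgfr1 (−0.27 to 0.247), Fgfr2 (−0.457 to 0.135) and Fgfr3 (−0.378 to 1.302) in ENG+/FDG+ against ENG+/FDG−, and for Fgfr1 (−0.318 to 0.42) and Fgfr3 (−1.264 to 0.26) in ENG+/FDG+ against ENG−/FDG+. In ENG−/FDG+ against ENG+/FDG− it turned for Fgfr1 (−0.421 to 0.274) and Fgfr3 (−0.0931 to 1.994), in HEI against FLK1+ for Fgfr3 (−0.456 to 0.0433), and in the reporter effect for Fgfr1 (−0.159 to 0.49), Fgfr2 (−1.006 to 0.108) and Fgfr3 (−1.074 to 0.605). Depth limits Fgf4, Fgf5 and Fgf8 within HEI, since none had more than 3 counts in any HEI library.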
